A study of Mus musculus with 10 samples.

Results

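The genes described here are 35 mouse genes whose products copy DNA or prepare the cell for it: origin licensing factors, the MCM helicase, replication fork proteins, enzymes of nucleotide supply, histone deposition factors, cyclin E and the E2F activators. They were chosen by name, and each was represented by the probe set with the highest mean among those annotated to that gene alone. All 35 were measured, of 19937 genes on the array. Transcript levels had been recorded with Affymetrix arrays that cover whole transcripts. The cells were J558, an established murine myeloma line that secretes antibody as plasma cells do. The control group carried the MSCV-Puro-IRES-GFP retroviral vector without an insert (empty vector, 3 arrays), and the other groups carried this vector with wild-type Pax5 (Pax5 WT, 3 arrays) or with Pax5 G183S (4 arrays). Pax5 is the transcription factor that maintains B-cell identity and is silenced in plasma cells, and G183S exchanges a glycine for a serine. Cells of every group had been held in puromycin for 5 to 7 days and sorted by flow cytometry on green fluorescence and IgM. All cultures were of this one line, and Pax5 expression was driven by the retroviral vector, not by the gene's own promoter. The labels number the arrays of a group as biological replicates. The comparisons ask what each form of Pax5 did to the genes and whether the mutant did the same as the wild type.

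The Pax5 probe set (10512669) read 6.84 to 7.10 log2 units with empty vector, 10.05 to 10.67 with Pax5 WT and 9.38 to 10.36 with Pax5 G183S. The G183S values thus reached lower than those of Pax5 WT. Whether the level of Pax5 had a part in differences between these groups was not tested. All 11 plasma-cell markers measured had means above 6.89 log2 units, the median of all values in the table, among them Sdc1, Xbp1, Irf4 and Jchain. Of the markers of other cell types, 2 of 9 T-cell, 1 of 10 myeloid, 3 of 8 stromal and 0 of 3 erythroid genes had means above that median. All 35 members had means above it, and single values ran from 7.95 to 13.38 log2 units.

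Replication begins when the origin recognition complex, Cdc6 and Cdt1 load the ring-shaped MCM helicase onto DNA before S phase. Cyclin E with its kinase and the Dbf4-dependent kinase then switch the helicase on by adding Cdc45 and the GINS complex. Polymerases, the sliding clamp and its loader follow, while thymidylate and ribonucleotide enzymes make the building blocks and chromatin assembly factors wrap the new DNA. Most of these genes are transcribed together at the border of G1 and S phase, when E2F factors are released from the retinoblastoma protein. In a culture of unsynchronised cells their transcript level therefore depends both on the share of cells near S phase and on the amount of RNA in each of them. These arrays cannot tell the one from the other.

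Promoter sequences of the members were searched for letters that E2F factors are known to bind. Windows of 300 bases around the gene starts, 250 before and 50 after, were taken from the RefSeq table of GRCm38.p6, which held 31 of the 35 members; Mcm4, Ccne2, Gins1 and Gins2 were not among them. Each window was searched on both strands for TTTCCCGC, TTTGGCGC, TTTCGCGC and TTTGCCGC, the letters of E2F-type sites. At least 1 of them stood in 13 of the 38 windows of these members (34.2%), each in a different gene, against 744 of all 32851 windows (2.26%). By role these were 4 MCM genes, 3 origin factors (Orc1, Cdc6, Cdt1), 3 fork genes (Pola1, Rfc3, Lig1), Uhrf1, E2f2 and E2f3. The CCAAT box, read as CCAAT on either strand, stood in 23 of the 38 member windows (60.5%) and in 37.4% of all windows. A match is a description of letters and not evidence of binding.

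Each stretch printed here shows 1 E2F-type site in capitals with 11 bases on each side, on the gene's own strand. In Mcm5 a second site on the other strand overlaps the capitals, and in Rfc3 a second site lies in the flank. These second sites are not marked. The stretches come from 4 subunits of 1 ring, 1 clamp loader subunit and 1 licensing factor. The likeness of their cores follows from the letters searched for, and the other members with a site carry such letters too.

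Mcm3 at chr1:20820275-20820304, minus strand, starting 19 bases after the gene start: aaacttccgtgGCGGGAAAacttgggaagt
Mcm5 at chr8:75109345-75109374, plus strand, 153 bases before the start: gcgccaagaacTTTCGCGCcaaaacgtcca
Mcm6 at chr1:128359734-128359763, minus strand, 47 bases before the start: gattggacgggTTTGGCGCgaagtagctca
Mcm7 at chr5:138172030-138172059, minus strand, 165 bases before the start: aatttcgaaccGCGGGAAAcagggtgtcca
Rfc3 at chr5:151651200-151651229, minus strand, 10 bases before the start: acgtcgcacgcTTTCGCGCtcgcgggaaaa
Cdc6 at chr11:98908002-98908031, plus strand, 138 bases before the start: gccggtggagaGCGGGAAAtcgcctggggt

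Mcm3, Mcm5, Mcm7, Orc1 and other members held both motifs, and Mcm6 is shown as an example. The 130 bases before its start (chr1:128359706-128359835, minus strand) are printed with E2F-type letters and CCAAT boxes in capitals. Sites on opposite strands overlap at the first block, and the CCAAT boxes appear in their reverse form.

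Mcm6: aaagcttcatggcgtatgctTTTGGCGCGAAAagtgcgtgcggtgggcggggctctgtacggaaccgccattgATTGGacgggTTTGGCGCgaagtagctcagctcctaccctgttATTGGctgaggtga

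No member of the 35 passed the test in any comparison. Between Pax5 WT and empty vector 0 of 35 had a limma adjusted p under 0.05, where 1.88% of all genes did (0.883% higher and 0.993% lower). At an unadjusted p under 0.05 the members counted 3 (Tyms and Gins2 higher, E2f2 lower), beside 15.9% of all genes (7.38% higher and 8.55% lower). Between Pax5 G183S and empty vector 0 of 35 passed limma, beside 0.311% of all genes (0.1% higher and 0.211% lower), and 4 had an unadjusted p under 0.05 (Ccne2 higher; Tk1, E2f2 and Ccne1 lower) beside 11.3% (5.12% higher and 6.18% lower). Between Pax5 G183S and Pax5 WT 0 of 35 passed, as did 0.0% of all genes. In that comparison 3 members had an unadjusted p under 0.05 (Tyms, Rfc5 and Gins2, all lower) beside 9.48% of all genes (5.08% higher and 4.41% lower). At these shares over all genes a count of 0 in 35 lies near the background. Arrays were also weighted in limma by their agreement with the fit of their group. Pax5 WT replicate 2 then had a weight of 3.48, where replicates 1 and 3 had 0.45 and 0.57. With these weights 1 member passed between Pax5 WT and empty vector (E2f2, lower) and 2 between Pax5 G183S and empty vector (Ccne2 higher, Tk1 lower). Between Pax5 G183S and Pax5 WT 5 passed (Mcm3, Rfc3 and Ccne2 higher, Gins2 and Rfc5 lower). Under that setting 2576, 1449 and 2752 of all genes passed.

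The size of the differences was bounded more closely than their sign. For all 35 members and all 3 comparisons the 95% interval of the log2 difference lay within 1 log2 unit of 0, so a doubling or a halving of the level was outside every interval. Over all genes 94.0%, 96.8% and 95.9% of intervals did so for Pax5 WT against empty vector, Pax5 G183S against empty vector and Pax5 G183S against Pax5 WT. The point estimates ran from -0.51 to 0.44, from -0.52 to 0.47 and from -0.50 to 0.39 in the same order. An interval that includes 0 does not show that the groups are alike, and smaller differences in either direction are inside most of them. Intervals were not formed for other settings. Without empty-vector replicate 1, E2f2 with Pax5 WT differed from empty vector by -0.65 ± 0.21 SE. Tk1 with G183S then differed from empty vector by -0.67 ± 0.21 SE, and the bound need not hold there.

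**Figure D1:**
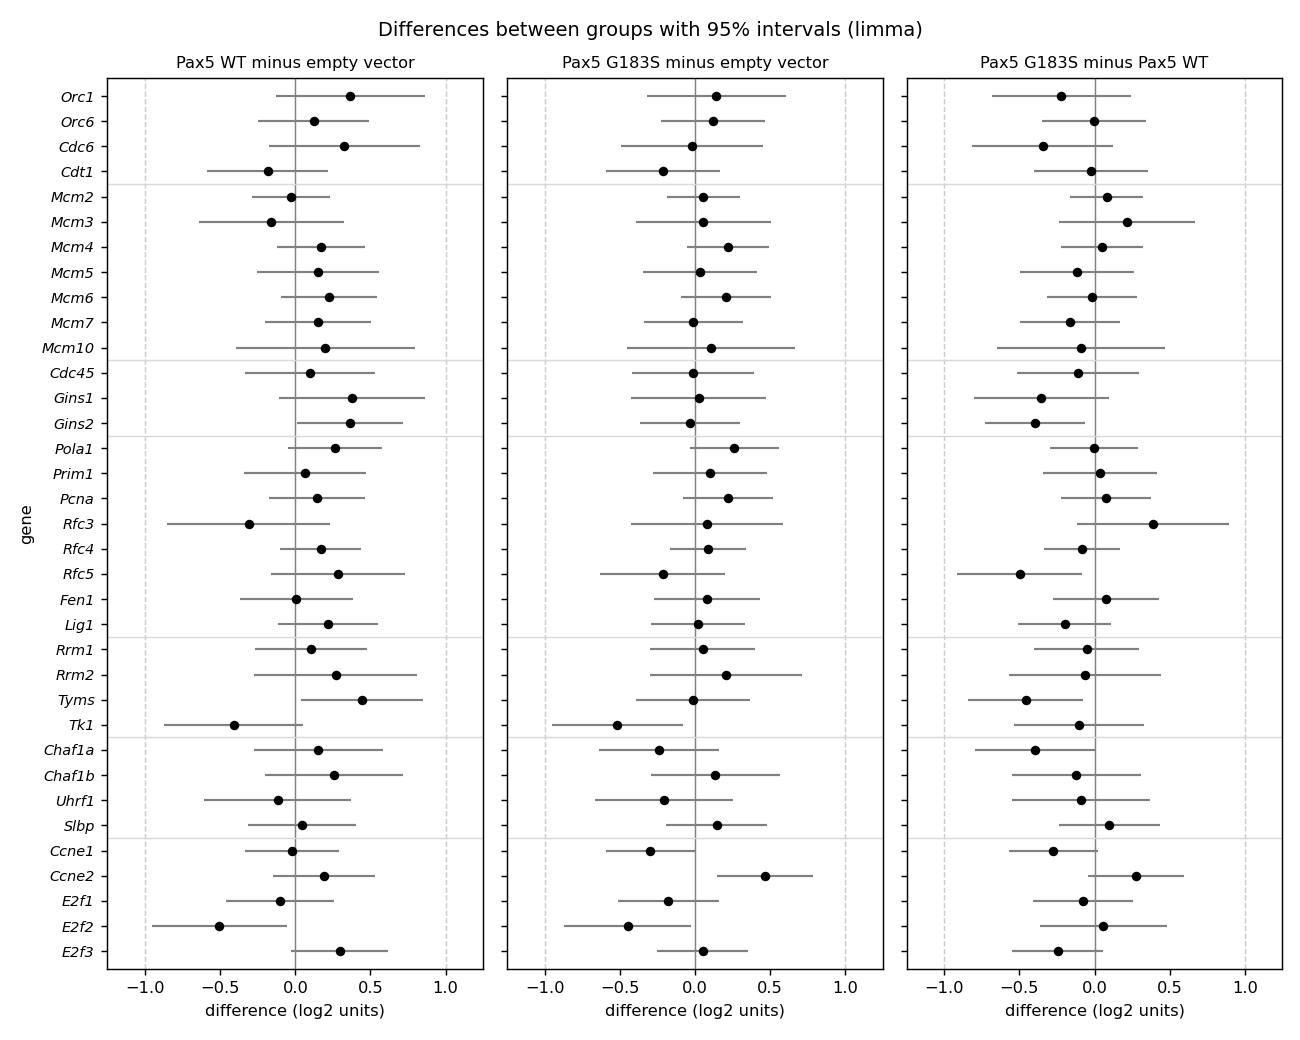
Log2 difference between groups (x axis, log2 units) for each of the 35 genes (y axis, in order of role), with 95% limma intervals as lines; dashed lines mark 1 log2 unit. Every interval stays inside the dashed lines in all 3 panels, and the points run from -0.52 to 0.47.

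Within the empty-vector and the G183S group the members varied more between cultures than the group means did. A mean score was formed for each array from the log2 level of every member minus that gene's mean over the 10 arrays. With empty vector the score was -0.36 in replicate 1, 0.17 in replicate 2 and 0.08 in replicate 3. In the Pax5 WT arrays it was 0.11, -0.01 and 0.10, and in the Pax5 G183S arrays -0.08, 0.15, -0.24 and 0.07. The groups overlapped. Their means were -0.04 ± 0.28 (SD, n = 3), 0.07 ± 0.07 (n = 3) and -0.02 ± 0.17 (n = 4), so that the group means lay 0.10, 0.01 and -0.09 log2 units apart in the order of the comparisons above, each less than the spread within the empty-vector or the G183S group.

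Empty-vector replicate 1 was the lowest of its group for 35 of the 35 members. Over all genes this array was the lowest of the group in 38.3%. The other empty-vector arrays exceeded it by 0.15 (Ccne2) to 0.99 (Mcm10) log2 units, with a median of 0.46, while they differed from each other by a median of 0.09. In the G183S group replicate 3 was the lowest for 23 members and replicate 1 for the other 12, whereas replicates 2 and 4 were the lowest for 0. Over all genes replicate 3 was the lowest of its group in 22.4% and replicate 1 in 32.6%. Replicate 3 was lowest for Orc1, Cdc6, Gins1, Gins2, Rfc5, Tyms and Rrm2 among others, and replicate 1 for Cdt1, Mcm2, Mcm3, Mcm4, Rfc3, Slbp and E2f2 among others. Some members were low in both, such as Mcm10 with 9.98 in each of these arrays against 10.62 and 10.48 in replicates 2 and 4. The median SD of a member within the empty-vector group was 0.28 log2 units, and the median over all genes was 0.09. In the Pax5 WT and G183S groups the medians were 0.14 and 0.26 for members and 0.12 in each group for all genes.

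Without empty-vector replicate 1 the mean difference of Pax5 WT from empty vector went from 0.10 to -0.06, and 16 members in place of 26 lay above 0. That of G183S from empty vector went from 0.01 to -0.15, and 6 members in place of 22 lay above 0. Without G183S replicate 3, G183S differed from Pax5 WT by -0.02 in place of -0.09. With both arrays left out, a setting chosen after the data were seen, 0 members passed limma in all 3 comparisons and the mean differences were -0.06, -0.07 and -0.02. Because both Pax5 groups were set against the same 3 empty-vector arrays, their differences from empty vector are not independent of each other.

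**Figure D2:**
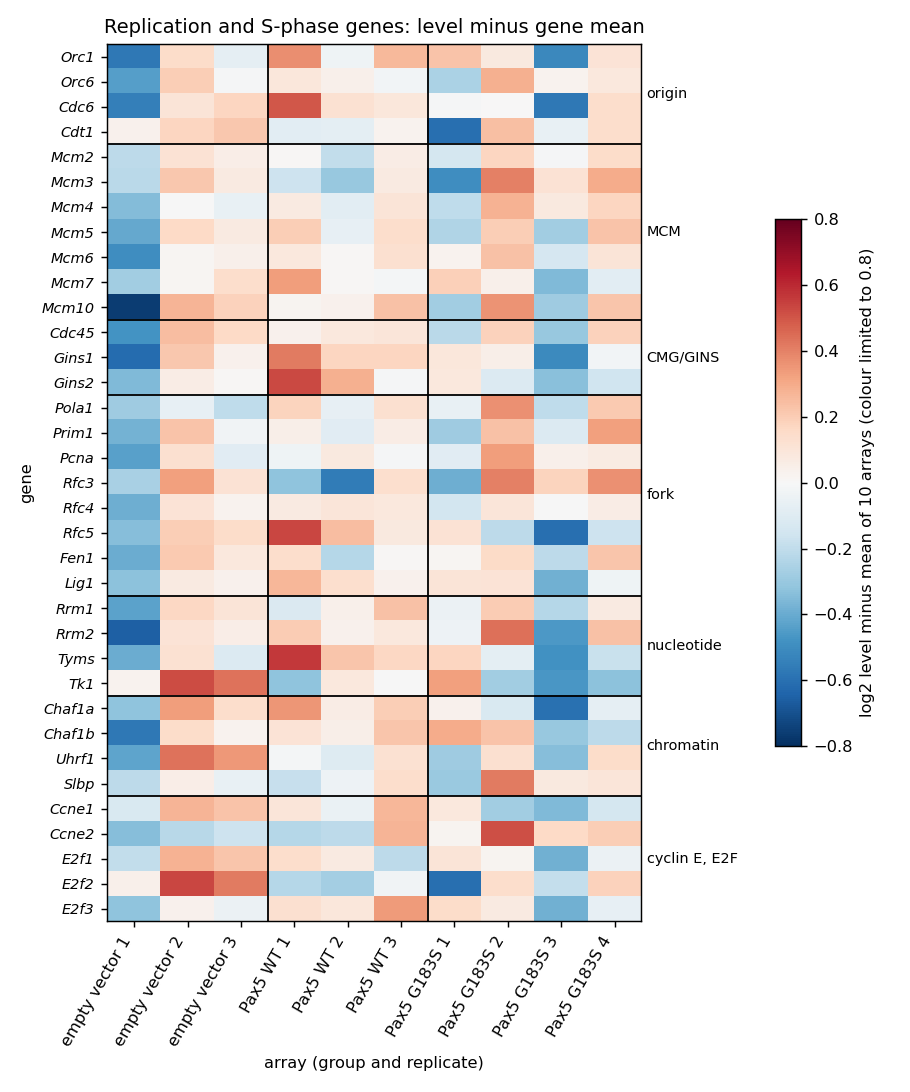
Log2 level of each of the 35 genes (rows, by role) minus its mean over the 10 arrays (columns, by group and replicate); blue is below and red above the mean, with the colour limited to 0.8. Empty-vector replicate 1 is the lowest of its group in every row, and G183S replicate 3 is the lowest of its group in 23 rows.

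Origin licensing factors showed this culture pattern and no difference that passed. Orc1, the largest subunit of the origin recognition complex (probe set 10506822), read 7.95, 8.67 and 8.46 log2 units with empty vector, 8.90, 8.49 and 8.78 with Pax5 WT, and 8.75, 8.61, 8.01 and 8.64 with G183S. Its low values were those of empty-vector replicate 1 and G183S replicate 3, and the groups overlapped. The log2 difference of Pax5 WT from empty vector was 0.37 ± 0.22 SE (limma adjusted p = 0.472), and without empty-vector replicate 1 it was 0.16. Cdc6, the loader that joins the complex before the helicase (10381072), read 8.48, 9.13 and 9.20 with empty vector, 9.52, 9.15 and 9.11 with Pax5 WT, and 9.01, 9.03, 8.46 and 9.16 with G183S. Again the same arrays were low. Its difference between G183S and Pax5 WT was -0.34 ± 0.21 SE (limma adjusted p = 0.596), and -0.19 without G183S replicate 3 or -0.22 without Pax5 WT replicate 1.

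Cdt1, the partner of Cdc6 that is destroyed once S phase starts, went another way. Its values (10576140) were 11.29, 11.43 and 11.47 with empty vector and 11.17, 11.18 and 11.28 with Pax5 WT, so that the groups did not overlap, with 11.28 and 11.29 the closest pair. With G183S it read 10.65 in replicate 1 and 11.50, 11.20 and 11.40 in replicates 2 to 4. The difference of Pax5 WT from empty vector was -0.18 ± 0.18 SE (limma adjusted p = 0.685), and that of G183S was -0.21 ± 0.17 SE (limma adjusted p = 0.755), or -0.03 without G183S replicate 1. Orc6, a small subunit of the origin complex, ranged from 10.28 to 11.003 over all arrays, and its mean differences were 0.12 for each Pax5 group against empty vector.

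Subunits of the MCM helicase were the most even of the larger role groups in their differences between group means. Between arrays they were not. Their score ranged over 0.63 log2 units, that of the fork genes over 0.54 and that of cyclin E and E2F genes over 0.41. Over the 7 genes (Mcm2 to Mcm7 form the ring, and Mcm10 helps to activate it) differences of Pax5 WT from empty vector ran from -0.16 to 0.22 log2 units, those of G183S from empty vector from -0.01 to 0.22, and those between G183S and Pax5 WT from -0.16 to 0.21. Mcm6 (10357436) read 11.26, 11.78 and 11.80 with empty vector, 11.85, 11.77 and 11.89 with Pax5 WT, and 11.79, 12.00, 11.63 and 11.86 with G183S. Apart from the low first empty-vector array these values lay close together, and the Pax5 WT difference was 0.22 ± 0.14 SE (limma adjusted p = 0.49995). Without that array it was 0.05.

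Mcm4 (10437945) read 11.04, 11.39 and 11.33 with empty vector, 11.46, 11.31 and 11.50 with Pax5 WT, and 11.19, 11.67, 11.47 and 11.56 with G183S. Its difference between G183S and empty vector was 0.22 ± 0.12 SE (limma adjusted p = 0.579), or 0.11 without empty-vector replicate 1. Mcm7 (10534974) read 11.04, 11.33 and 11.46 with empty vector, 11.65, 11.33 and 11.30 with Pax5 WT, and 11.51, 11.36, 10.96 and 11.23 with G183S. Its difference between G183S and Pax5 WT was -0.16 ± 0.15 SE (limma adjusted p = 0.712), or -0.06 without G183S replicate 3 and -0.05 without Pax5 WT replicate 1. Here G183S replicate 1 was the highest of its group, whereas for Mcm3 it was the lowest (11.01 against 11.91, 11.62 and 11.80). The order of the G183S arrays thus differed between subunits of the same ring. Mcm10 had the widest spread of all members within the empty-vector group, with 9.51, 10.53 and 10.45 (SD 0.57).

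The 3 helicase activation factors had positive differences from empty vector with Pax5 WT, none past the threshold. Gins2 (10582190), a subunit of the GINS complex that binds the MCM ring, read 8.58, 8.998 and 8.95 log2 units with empty vector, 9.47, 9.22 and 8.93 with Pax5 WT, and 9.02, 8.83, 8.60 and 8.78 with G183S. The Pax5 WT arrays overlapped both other groups through replicate 3. The log2 difference of Pax5 WT from empty vector was 0.36 ± 0.16 SE (limma adjusted p = 0.302), that of G183S from empty vector -0.03 ± 0.15 SE (limma adjusted p = 0.978), and that of G183S from Pax5 WT -0.40 ± 0.15 SE with an interval from -0.73 to -0.07 (limma adjusted p = 0.508). Without empty-vector replicate 1 or Pax5 WT replicate 1 the first of these was 0.23. Gins1 (10476989), another subunit, read 9.34, 10.18 and 10.00 with empty vector, 10.38, 10.14 and 10.14 with Pax5 WT, and 10.05, 10.01, 9.46 and 9.94 with G183S. Every G183S array lay below every Pax5 WT array, a separation seen in 2 members and, in either direction, in 6.5% of all genes (2.33% higher and 4.17% lower). Gins1 was named for that separation after its values were seen, and its difference was -0.35 ± 0.20 SE (limma adjusted p = 0.580). Cdc45, which completes the active helicase, ranged from 10.35 to 11.07 with group means of 10.80, 10.90 and 10.79. Its positive difference with Pax5 WT rests on empty-vector replicate 1 (10.35), since the mean of the other empty-vector arrays was 11.03, above the Pax5 WT mean.

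Polymerase, clamp and ligation genes showed small differences apart from the clamp loader. Pola1 (10605674), the catalytic subunit of the polymerase that lays the first DNA on the primer, read 9.22, 9.44 and 9.31 log2 units with empty vector, 9.69, 9.45 and 9.64 with Pax5 WT, and 9.45, 9.87, 9.31 and 9.72 with G183S. All Pax5 WT arrays lay above all empty-vector arrays, the closest pair being about level at 9.44 and 9.45. Differences from empty vector were 0.27 ± 0.14 SE with Pax5 WT (limma adjusted p = 0.399) and 0.26 ± 0.13 SE with G183S (limma adjusted p = 0.511), the latter 0.17 without G183S replicate 2. Non-overlap of this kind was found in 5 members between Pax5 WT and empty vector (Pola1, Tyms and E2f3 higher, E2f2 and Cdt1 lower), beside 24.0% of all genes (11.5% higher and 12.5% lower).

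Rfc5 and Rfc3 are small subunits of the clamp loader, which opens the Pcna ring and sets it on DNA. Rfc5 (10533090) read 10.89, 11.42 and 11.37 with empty vector, 11.76, 11.48 and 11.30 with Pax5 WT, and 11.34, 11.02, 10.62 and 11.06 with G183S. The lowest value was that of G183S replicate 3, and replicate 1 overlapped the Pax5 WT arrays. G183S differed from Pax5 WT by -0.50 ± 0.19 SE (interval -0.91 to -0.08, limma adjusted p = 0.508), the largest difference between these groups among the 35. Rfc3 pointed the other way in the same comparison, by 0.39 ± 0.23 SE (limma adjusted p = 0.583). Rfc4, the third small subunit among the 35 members, differed by -0.08 ± 0.11 SE (limma adjusted p = 0.812). For Pcna, Prim1, Fen1 and Lig1 (the clamp, the primase, the flap nuclease and the ligase of the lagging strand) the differences in the 3 comparisons lay between -0.20 and 0.22. The Pcna probe set used may likewise read a retrocopy. It differed from empty vector by 0.14 with Pax5 WT and 0.22 with G183S, and the second Pcna probe set by 0.03 and 0.11.

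Enzymes of nucleotide supply had differences of both signs. Tyms (10528915), the thymidylate synthase that makes dTMP from dUMP, read 9.31, 9.83 and 9.60 log2 units with empty vector, 10.27, 9.93 and 9.87 with Pax5 WT, and 9.88, 9.63, 9.22 and 9.53 with G183S. All Pax5 WT arrays lay above all empty-vector arrays, and G183S replicate 1 reached the lower Pax5 WT values. The log2 difference of Pax5 WT from empty vector was 0.44 ± 0.18 SE (interval 0.04 to 0.85, limma adjusted p = 0.267). It was 0.31 without empty-vector replicate 1 and 0.32 without Pax5 WT replicate 1. G183S differed from Pax5 WT by -0.46 ± 0.17 SE (limma adjusted p = 0.507) and from empty vector by -0.01 ± 0.17 SE (limma adjusted p = 0.991).

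Tk1 (10582809), the thymidine kinase that reaches the same product by salvage, read 9.10, 9.60 and 9.51 with empty vector, 8.75, 9.16 and 9.07 with Pax5 WT, and 9.40, 8.80, 8.61 and 8.75 with G183S. G183S replicate 1 lay among the empty-vector arrays, and the other G183S arrays lay below them. Differences from empty vector were -0.41 ± 0.21 SE with Pax5 WT (limma adjusted p = 0.376) and -0.52 ± 0.19 SE with G183S (interval -0.95 to -0.08, limma adjusted p = 0.331). A second Tk1 probe set gave differences of -0.35 and -0.64, the same sign in each. Which of the Tk1 probe sets reads the gene itself was not settled here, and the one used may also read, or read only, a retrocopy (a copy of the transcript elsewhere in the genome). The ribonucleotide reductase subunits Rrm1 and Rrm2 differed by 0.10 and 0.27 with Pax5 WT and by 0.05 and 0.21 with G183S against empty vector. Rrm2 was as low as 11.33 in empty-vector replicate 1 and 11.52 in G183S replicate 3, against at least 11.95 in the other arrays.

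The 4 chromatin members had differences between -0.24 and 0.26 from empty vector over both Pax5 groups. Chaf1a (10446027), the large subunit of the chromatin assembly factor that brings histones to new DNA, read 9.08, 9.74 and 9.55 with empty vector, 9.76, 9.47 and 9.60 with Pax5 WT, and 9.44, 9.28, 8.81 and 9.33 with G183S. Every G183S array lay below every Pax5 WT array, with 9.44 and 9.47 the closest pair. That difference was -0.39 ± 0.18 SE (limma adjusted p = 0.528), or -0.26 without G183S replicate 3. G183S differed from empty vector by -0.24 ± 0.18 SE (limma adjusted p = 0.727), which ranged from -0.43 without empty-vector replicate 1 to -0.10 without empty-vector replicate 2 or G183S replicate 3. Chaf1b (10437040), its partner subunit, read 9.60, 10.31 and 10.20, then 10.27, 10.21 and 10.39, then 10.46, 10.39, 9.87 and 9.96 in the same order of groups, and G183S replicates 1 and 2 lay at or above the Pax5 WT arrays. Its Pax5 WT difference from empty vector was 0.26 ± 0.21 SE (limma adjusted p = 0.603), or 0.04 without empty-vector replicate 1 and 0.40 without empty-vector replicate 2. Uhrf1, which directs maintenance methylation to replicated DNA, differed from empty vector by -0.12 with Pax5 WT and -0.21 with G183S. Slbp, the protein that binds the stem-loop of histone mRNA, differed by 0.05 and 0.15.

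The E2F and cyclin E genes held the members with the smallest p against empty vector, and they differed in sign. E2f2 (10509168), an activator E2F, read 10.48, 10.97 and 10.85 log2 units with empty vector, 10.21, 10.17 and 10.41 with Pax5 WT, and 9.84, 10.58, 10.25 and 10.62 with G183S. All Pax5 WT arrays lay below all empty-vector arrays, whereas G183S replicates 2 and 4 lay above the lowest empty-vector array. Differences from empty vector were -0.51 ± 0.20 SE with Pax5 WT (interval -0.96 to -0.06, limma adjusted p = 0.256) and -0.45 ± 0.19 SE with G183S (limma adjusted p = 0.407). Between G183S and Pax5 WT the difference was 0.06 ± 0.19 SE, with an interval from -0.36 to 0.48.

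E2f3 (10408477), the activator paralogue, read 10.26, 10.61 and 10.53 with empty vector, 10.71, 10.67 and 10.92 with Pax5 WT, and 10.72, 10.65, 10.19 and 10.51 with G183S. It was named for the separation of Pax5 WT from empty vector after its values were seen, with a difference of 0.30 ± 0.14 SE (limma adjusted p = 0.359). The lower E2f3 probe set, not used in the fit, gave -0.01 for the same difference, so that the separation rests on 1 of 2 probe sets. E2f1 ranged from 9.99 to 10.65, with differences from empty vector of -0.10 with Pax5 WT and -0.18 with G183S.

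Cyclin E drives entry into S phase with its kinase Cdk2, and the differences of its genes Ccne1 and Ccne2 had opposite signs with G183S. Ccne2 (10503264) read 10.14, 10.26 and 10.32 log2 units with empty vector, 10.26, 10.28 and 10.76 with Pax5 WT, and 10.51, 11, 10.65 and 10.69 with G183S. Every G183S array lay above every empty-vector array, the single member of which this was true in that comparison, beside 11.6% of all genes (5.02% higher and 6.56% lower). The difference was 0.47 ± 0.14 SE (interval 0.15 to 0.79, limma adjusted p = 0.200), the smallest adjusted p of the 35. Leaving out single arrays kept it between 0.37 and 0.54. Ccne1 (10562563) read 11.03, 11.43 and 11.38 with empty vector, 11.25, 11.10 and 11.42 with Pax5 WT, and 11.24, 10.88, 10.80 and 11.01 with G183S. Of its G183S arrays 3 lay below all empty-vector arrays and replicate 1 among them, with a difference of -0.30 ± 0.13 SE (limma adjusted p = 0.438). Whether the response to G183S differed between the paralogues was not tested.

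**Figure D3:**
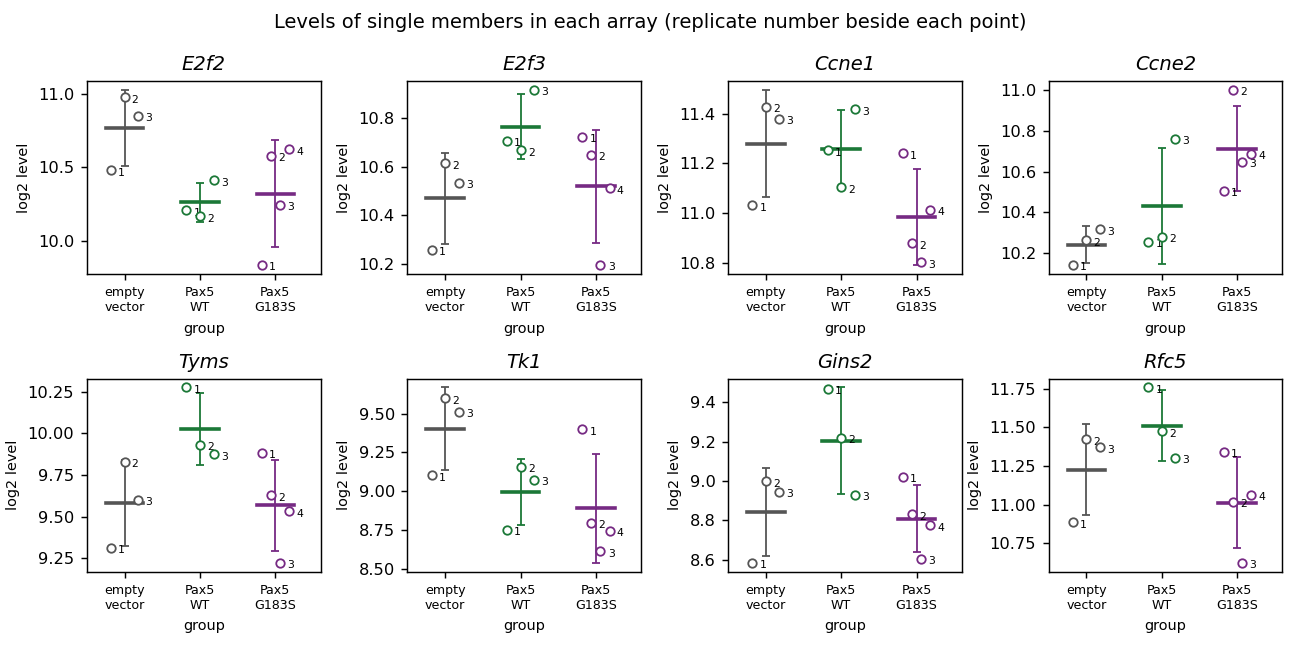
Log2 level (y axis, a scale of its own in each panel) of 8 genes in every array by group, with the replicate number beside each point, the group mean as a bar and the SD as an error bar. Ccne2 with G183S lies above all empty-vector arrays, and E2f2 with Pax5 WT lies below them.

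Other genes of the same processes gave few calls. Of 46 further replication factors 0 passed limma in any comparison. Between Pax5 WT and empty vector 14 of them had an unadjusted p under 0.05, all higher, beside 7.38% of all genes higher at that p. In 15 of them the groups did not overlap, all higher, beside 11.5% of all genes. Dbf4, the activator of the Cdc7 kinase that fires origins, had a difference of 0.67 ± 0.15 SE (limma adjusted p = 0.0521). Top1, the topoisomerase that relieves twist ahead of the fork, had one of 0.90 ± 0.20 SE (limma adjusted p = 0.0592), and the checkpoint scaffold Topbp1 one of 0.33 ± 0.11 SE. With G183S the smallest p in this list were those of Donson (0.31), Top1 (0.54) and Orc4 (0.27, log2 differences from empty vector). Against Pax5 WT they were those of Supt16 (0.36), Dbf4 (-0.44) and Dna2 (-0.41).

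Hells, a chromatin remodeller active in S phase, rose with Pax5 WT. It read 9.13, 9.32 and 9.35 log2 units with empty vector, 10.18, 9.99 and 9.98 with Pax5 WT, and 10.08, 10.19, 9.57 and 9.89 with G183S, and no Pax5 array overlapped the empty-vector arrays. The Pax5 WT difference was 0.78 ± 0.15 SE (limma adjusted p = 0.0339) and that of G183S 0.66 ± 0.14 SE (limma adjusted p = 0.0787). The Pax5 WT call was lost with arrays centred on their medians (limma adjusted p = 0.0564) and with the replicate block (0.0672), and without any one of the empty-vector or Pax5 WT arrays or G183S replicate 4, with limma adjusted p up to 0.130. Hells was the single call among 29 S-phase chromatin and checkpoint genes, beside 0.883% of all genes called higher with Pax5 WT. Of these, 12 had an unadjusted p under 0.05 with Pax5 WT, all higher (7.38% of all genes), such as Atad2 (0.40) and the checkpoint kinase gene Chek1 (0.54). In G183S against empty vector 0 of 29 passed limma and 8 had an unadjusted p under 0.05, all higher (5.12% of all genes), led by Atad2 (0.51, limma adjusted p = 0.0725) and Npat, the activator of histone genes (0.37, limma adjusted p = 0.0923). Between G183S and Pax5 WT 0 passed limma. An unadjusted p under 0.05 was found for 5 (1 higher, 4 lower), beside 9.48% of all genes (5.08% higher and 4.41% lower). Among them were Blm (-0.40), Fancd2 (-0.76) and Rbbp4 (0.25).

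Rrm2b, the ribonucleotide reductase subunit induced by p53, was the call among 20 nucleotide metabolism genes (0.883% of all genes called higher with Pax5 WT). It read 8.15, 8.38 and 8.21 with empty vector, 9.60, 9.51 and 8.9969 with Pax5 WT, and 8.99, 9.27, 8.47 and 9.07 with G183S. It rose by 1.12 ± 0.20 SE log2 units with Pax5 WT (limma adjusted p = 0.0311), while the S-phase subunit Rrm2 differed by 0.27 ± 0.24 SE (limma adjusted p = 0.654). The G183S difference was 0.70 ± 0.19 SE (limma adjusted p = 0.153). The Pax5 WT call of Rrm2b was lost without empty-vector replicates 1, 2 or 3, Pax5 WT replicates 1 or 2 or G183S replicate 4, with limma adjusted p up to 0.128. Samhd1, which breaks down dNTPs, differed by -0.39 and -0.40 and Paics, a purine synthesis enzyme, by 0.32 and 0.02 from empty vector with Pax5 WT and G183S, and neither passed limma. With G183S the third smallest p was that of Nme1 (0.17, limma adjusted p = 0.422). Between G183S and Pax5 WT 0 of 20 passed limma. Of these, 2 had an unadjusted p under 0.05 (Atic -0.33, Mthfd1 -0.49, limma adjusted p = 0.508 for each), beside 9.48% of all genes. Paics was next (-0.30).

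Among 32 genes of cyclin, CDK, retinoblastoma and E2F control 0 passed limma in any comparison, and 5, 4 and 2 had an unadjusted p under 0.05 in the order used above, beside 15.9%, 11.3% and 9.48% of all genes. The D-type cyclins, which start the release of E2F, differed in sign with Pax5 WT. Ccnd3 differed from empty vector by -0.50 ± 0.12 SE (limma adjusted p = 0.0647) and Ccnd2 by 0.46 ± 0.11 SE (limma adjusted p = 0.0736). With G183S the same genes differed by -0.41 and 0.32, and Fbxw7, which marks cyclin E for destruction, by -0.35 (limma adjusted p = 0.142, 0.249 and 0.323). The CDK inhibitor gene Cdkn2d differed by -0.71 with Pax5 WT. Between G183S and Pax5 WT the smallest p were those of Rb1 (0.56), Rbl2 (1.04), the latter a pocket protein of resting cells, and Myc (-0.26).

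Mitosis genes, which peak later in the cycle, were also measured. Of 29 mitosis genes 3 were called higher with Pax5 WT against empty vector, beside 0.883% of all genes. Cenpe rose by 1.58, Cenpf by 1.52 and Ndc80 by 1.15 log2 units (limma adjusted p = 0.0311, 0.0404 and 0.0471). All 29 mitosis genes lay above 0 (53.9% of all genes) and 25 had non-overlapping groups, all higher (11.5% of all genes). Their median difference was 0.67, where that of the 35 members was 0.15 and that of all genes 0.01. Each of the 3 calls was lost without any one of the empty-vector arrays, Pax5 WT replicates 1 and 2 or G183S replicate 4. Cenpf and Ndc80 were also lost without Pax5 WT replicate 3, and Cenpe and Cenpf without G183S replicate 2. The limma adjusted p reached 0.136 for Cenpe, 0.166 for Cenpf and 0.140 for Ndc80. With the replicate block all 3 were lost (limma adjusted p = 0.0526, 0.0692 and 0.0670), and with arrays centred on their medians Cenpf and Ndc80 were lost (0.0513 and 0.0661). Against empty vector the G183S medians were 0.07 for mitosis genes, 0.05 for members and -0.00 for all genes, and the smallest p were those of Ndc80 (0.68), Cenpe (0.80) and Hmmr (0.63), with limma adjusted p of 0.255 or more. Between G183S and Pax5 WT they were -0.53, -0.08 and -0.02, with 0 mitosis genes past limma's threshold and 18 at an unadjusted p under 0.05, all lower (4.41% of all genes), led by Cenpf (-1.11), Mad2l1 (-0.48) and Tpx2 (-0.66) with limma adjusted p = 0.484.

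Mean scores were also formed for the other lists in each array. The mitosis score was -0.62, -0.13 and -0.08 with empty vector, 0.55, 0.51 and 0.25 with Pax5 WT, and 0.36, -0.01, -0.63 and -0.19 with G183S. Its Pax5 WT arrays all lay above its empty-vector arrays, which was not so for the members. Both scores were low in empty-vector replicate 1 and G183S replicate 3. In G183S replicate 1 the mitosis score was the highest of its group and lay above that of Pax5 WT replicate 3. The member score of G183S replicate 1 was below 0. The score of 11 reference genes stayed between -0.08 and 0.06 in all arrays. The score of 11 plasma-cell markers was 0.13 to 0.26 with empty vector, 0.29, 0.30 and -0.17 with Pax5 WT, 0.37 in G183S replicate 1 and -0.58, -0.49 and -0.27 in G183S replicates 2 to 4, and its part in the member values was not tested. No test compared the members with the mitosis list.

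**Figure D4:**
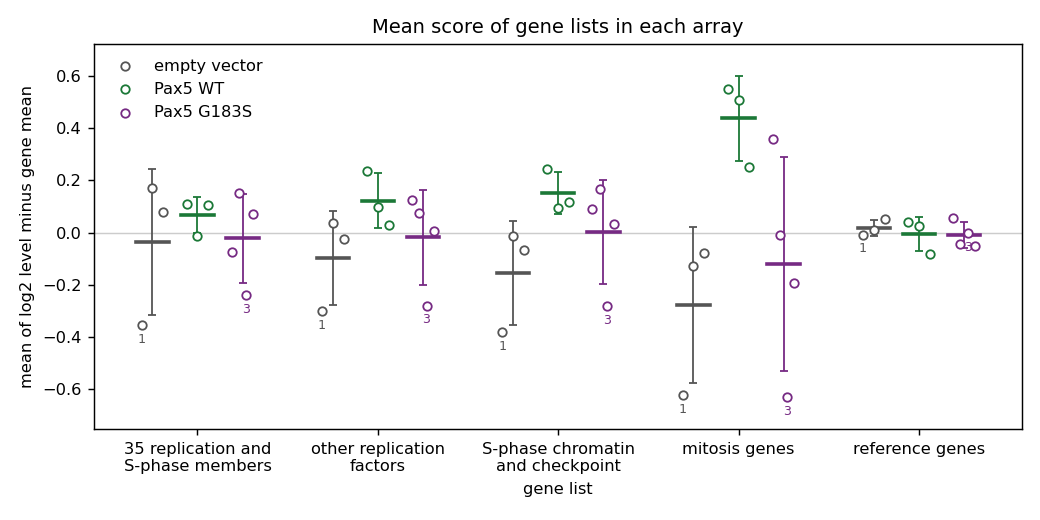
Mean of log2 level minus gene mean (y axis) in each array for the 35 members and 4 other gene lists (x axis), by group; bars are group means, error bars SD, and the numbers mark empty-vector replicate 1 and G183S replicate 3. The member groups overlap, with means of -0.04, 0.07 and -0.02, while the Pax5 WT arrays of the mitosis list lie at 0.25 to 0.55, above its empty-vector arrays.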

How the data were processed

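Per the labels' protocols, sense cDNA was generated from 100 ng of total RNA per culture with an Ambion kit and labelled for Affymetrix arrays. The authors deposited one log2 value per probe set and array. The submitters' processing notes list RMA together with Partek. Their roles, versions and the arrays normalized jointly are in this case not given in the sources used here. Since RMA brings arrays to a similar distribution, a change common to most transcripts would largely be hidden. The medians of the deposited arrays still ran from 6.81 to 6.94 log2 units. With arrays centred on their medians the mean member difference from empty vector was 0.07 with Pax5 WT and -0.02 with G183S, in place of 0.10 and 0.01. Of 34760 probe sets, 21640 had 1 gene symbol in the platform annotation, 1321 several and 11799 no entry. Taking the probe set of highest mean per gene left 19937 genes. Pcna, Tk1, Slbp and E2f3 had 2 probe sets, and those used for Pcna and Tk1 may read a retrocopy instead of the gene.

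The 10 arrays entered a single model in limma 3.58.1 (R 4.3.3) that estimated a mean for each group. Spread was moderated across genes (2.88 prior and 7 residual degrees of freedom), and p-values, two-sided, were adjusted by the Benjamini-Hochberg method over 19937 genes. A gene was called at an adjusted p under 0.05. The fit was tested on simulated data with noise drawn independently for each gene and array. Shifts shared by many genes of a culture were not part of that test. Scores have no test. The members and lists were chosen with earlier results of these data known. In each role the member with the smallest p per comparison is given in every array, and in each other list the called genes and those 3 with the smallest p are named. The number of arrays, 3 or 4 per group, limits the precision. Promoters came from RefSeq (GRCm38.p6). Figures were drawn with matplotlib 3.10.9. Alternatives were median centring, quantile normalization, leaving out dim probe sets, averaging probe sets, trended robust moderation, array weights, fits of 2 groups, a replicate block and leaving out each array.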

Additional observations from a re-analysis of the deposited data

Results flagged for a closer look

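Chance alone sets about 1 in 20 groups apart by the rule used here, Dixon's test at its 95% critical value for 4 samples, and 36 groups were tested. The helicase activation score (Cdc45, Gins1, Gins2) in G183S replicate 3 stood apart from its group at -0.38, the others being -0.01, 0.04 and 0.00. The score of cyclin, CDK, retinoblastoma and E2F control genes stood apart in the same array at -0.11, the others being 0.03, 0.03 and 0.01.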

How the results depend on the processing

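The count of 0 members called held in all 3 comparisons under every setting tried except array weights, which gave 1, 2 and 5 members; the cause was not tested. Leaving out single arrays kept it at 0 to 0. Over all genes the count with Pax5 WT against empty vector was 374 in the fit reported, 2576 with array weights, 587 with only these groups fitted, 228 with the replicate block, 157 without empty-vector replicate 1 and G183S replicate 3 together, and 6 (without empty-vector replicate 3) to 1033 (without G183S replicate 1) without single arrays. With G183S against empty vector it was 62, then 1449 with array weights, 10 with the replicate block, 94 without those arrays together and 8 to 295 without the same single arrays. Between G183S and Pax5 WT it was 0, then 2752 with array weights, 2 with the replicate block and 0 to 1113 without single arrays, the highest without G183S replicate 1. The block changed no member's call, but ended those of Hells, Cenpe, Cenpf and Ndc80. The labels do not say that equal replicate numbers pair arrays. Deviations of same-numbered arrays correlated at -0.16 to 0.51, and those of differently numbered arrays at -0.58 to 0.29. Between Pax5 WT and G183S the same-numbered values were 0.51, -0.16 and 0.455 for replicates 1, 2 and 3. Whether these groups shared batches was not tested. The mean member difference ranged over single left-out arrays from -0.06 to 0.21, from -0.15 to 0.12 and from -0.15 to -0.02 in the order of the comparisons. Gins2 between G183S and empty vector changed sign without empty-vector replicates 2 (0.0433) or 3 (0.02) or G183S replicate 3 (0.03), within a range of -0.16 to 0.04. Member log2 differences stayed between -0.69 and 0.75 under all settings. The deposited values carry no detection calls, so a signal near background could not be marked.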
